A study of Mus musculus with 6 samples.

Results

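Death receptor and necroptosis signaling was examined through 8 genes, Fas, Tnfrsf10b, Fadd, Casp8, Cflar, Ripk1, Ripk3 and Mlkl, which were chosen for their roles in these pathways and matched by symbol. The deposited data list 11835 genes, and 7 of the 8 are among them. Ripk3 has no listed transcript, so its RNA level was not analysed here. Levels are in FPKM, a read density that corrects for the length of a transcript and the size of a library. All 7 listed genes had a mean of 0.5 FPKM or more, as did 11593 genes in all, and these were tested. The cells were C2C12, a mouse myoblast line for which the labels name no transgene or deletion, and they were moved to horse serum to differentiate. The siNC group holds 3 libraries of cells transfected with NC siRNA, and the siCNN3 group holds 3 libraries of cells transfected with CNN3 siRNA. The labels call all of them mouse myotubes and the paper calls them differentiating myoblasts. No library is labeled as given a different CNN3 siRNA or a rescue. An effect of the siRNA sequence therefore cannot be told apart from that of lower Cnn3. Values given as after CNN3 knockdown are those of the siCNN3 libraries. Nothing states that the 3 libraries of a group came from separate experiments, so p-values measure only the spread between these libraries. Where 3 values of a group are given, they stand in the order of replicates 1, 2 and 3.

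Death receptors of the tumor necrosis factor family carry a death domain in their cytoplasmic tail. Fas and Tnfrsf10b, the receptor for TRAIL, use this domain to recruit the adaptor Fadd, which in turn binds caspase-8, and caspase-8 starts apoptosis by cleaving the effector caspases. Cflar encodes c-FLIP, a relative of caspase-8 that limits this step. When caspase-8 is inactive, the kinases Ripk1 and Ripk3 can join in a complex that phosphorylates Mlkl, the protein that breaks the plasma membrane in necroptosis.

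The genes lie on several chromosomes of the mouse build GRCm38. Mlkl is on chromosome 8 (111311797 to 111338177, minus strand), Ripk1 on chromosome 13 (34002363 to 34037147), Fas on chromosome 19 (34290666 to 34327772), Tnfrsf10b on chromosome 14 (69767472 to 69784411) and Fadd on chromosome 7 (144577318 to 144582463, minus strand). Cflar and Casp8 are neighbors on the plus strand of chromosome 1, at 58711508 to 58758884 and 58795374 to 58847503. The gap between them is 36489 base pairs and holds 1 annotated gene, Gm3841.

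The start site windows of 3 genes are shown because they differ in short motifs known to be bound by factors of the interferon response, whose target genes are described below beside Mlkl. RefSeq sequences of GRCm38.p6 with 250 bases before and 50 bases from a start site were available for 7 of the 8 genes, in 8 windows, and Tnfrsf10b had no entry. They were searched on both strands for GAAANNGAAA (the interferon-stimulated response element, ISRE), TTCNNNGAA (the gamma-activated site, GAS) and GGGNNTTTCC (a form of the NF-κB site). These letters occur in 3.44%, 8.30% and 1.63% of all 32851 windows. Capitals mark matches to any of the searched motifs.
Mlkl, chr8:111338156-111338455, minus strand: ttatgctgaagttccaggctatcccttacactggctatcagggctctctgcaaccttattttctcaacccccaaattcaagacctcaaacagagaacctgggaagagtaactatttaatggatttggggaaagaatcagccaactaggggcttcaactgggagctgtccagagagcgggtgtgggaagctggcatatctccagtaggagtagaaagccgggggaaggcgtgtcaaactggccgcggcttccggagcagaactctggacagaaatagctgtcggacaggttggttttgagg
Ripk1, second start, chr13:34002624-34002923, plus strand: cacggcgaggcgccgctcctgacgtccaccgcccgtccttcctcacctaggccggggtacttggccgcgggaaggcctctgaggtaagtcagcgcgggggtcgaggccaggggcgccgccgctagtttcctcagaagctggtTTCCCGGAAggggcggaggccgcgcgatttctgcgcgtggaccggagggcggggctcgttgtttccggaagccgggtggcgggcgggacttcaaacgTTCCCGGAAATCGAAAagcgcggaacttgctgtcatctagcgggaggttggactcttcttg
Cflar, 50 bases on either side of the start, chr1:58711441-58711540, plus strand: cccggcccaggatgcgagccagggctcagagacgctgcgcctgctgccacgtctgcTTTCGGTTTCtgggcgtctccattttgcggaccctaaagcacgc

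None of the 3 motifs was found in the Mlkl window. The second Ripk1 window, whose start is that of the transcript Ripk1-203, held an ISRE whose first base is at position -5 from the start and GAS matches whose first bases are at -108 and -11. The latter GAS shares 3 bases with the ISRE. The other Ripk1 window, at the start of Ripk1-201, held none. The Cflar window held an ISRE on the minus strand from base 7 after the start, and the Fas window a GAS with its first base at -93. No listed Cflar transcript starts within the Cflar window. Cflar-205, the main one, starts at 58711560, beyond the end of that window. The windows of Casp8, Fadd and Ripk3 held none of the motifs, and the Casp8 window lies at the start of the transcript Casp8-202, not at that of Casp8-201. A match describes the letters only, and no binding was measured.

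Cnn3, the gene targeted by the siRNA, measured 62.8, 61.4 and 62.8 FPKM in the siNC libraries, against 19.0, 39.2 and 25.6 FPKM after CNN3 knockdown. The groups were separate, with a log2 fold change of -1.19 (limma adjusted p = 0.0669, standard error 0.242). Of all alternatives, Cnn3 was called only when siCNN3 replicate 2 was left out (limma adjusted p = 0.0475). Numbers of reads are unknown, and the sum of the deposited FPKM was between 322621 and 355591 per library. Of the 23949 transcripts matched to a gene, 976 to 1324 were listed at 0 in 5 libraries and 2120 in siNC replicate 1. A value of 0 can be a failed estimate. The muscle marker list (12 of 12 genes listed) summed to between 169.5 and 198.5 FPKM in siNC and between 119.9 and 132.7 FPKM in siCNN3, and most of the sum was Des, the gene of desmin. limma called 3 of the 11 tested muscle markers lower, Acta1, Myh3 and Tnnt1 (log2 fold change -2.12, -1.38 and -1.71), and 0 higher, beside 0.336% of all tested genes called lower. Of the 11, 10 had a log2 fold change below 0. At an unadjusted limma p below 0.05, 8 were lower, beside 6.14% of all tested genes. The 1 above 0 was Myf5, a factor of early myoblasts, with a log2 fold change of 0.88, which did not pass (limma adjusted p = 0.238). The muscle genes named here were chosen after their values were seen. Ckm, the creatine kinase of mature muscle, reached at most 0.911 FPKM in any library. Of 12 immune cell markers only Cd68 and Lyz2 were listed, with a sum of 4.72 to 10.2 FPKM in siNC and 2.81 to 4.04 FPKM in siCNN3, and Ptprc, the leukocyte antigen CD45, was not. Tek was the only listed gene of 6 endothelial markers, at 0.681 to 1.37 FPKM over both groups.

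siNC replicate 1 and siCNN3 replicate 3 stood apart from the other libraries of their groups in a similar way. Among all tested genes, 39.0% were lowest of their group in both of these libraries and 15.2% were highest of their group in both. Of the 7 death receptor and necroptosis genes, 3 were lowest in both (Fadd, Cflar and Mlkl) and 2 were highest in both (Fas and Tnfrsf10b). What sets these libraries apart was not tested, and values without them are given where they matter.

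In siNC, Mlkl and Cflar had the highest levels of the 7 genes and Fadd the lowest. The group means were 21.6 ± 6.37 FPKM for Mlkl, 19.8 ± 3.61 FPKM for Cflar, 13.1 ± 3.48 FPKM for Fas, 12.4 ± 2.52 FPKM for Tnfrsf10b, 12.3 ± 1.26 FPKM for Casp8, 9.27 ± 5.41 FPKM for Ripk1 and 2.15 ± 1.02 FPKM for Fadd (SD, n = 3). Neighbors in this order overlapped between libraries, apart from Ripk1 and Fadd, whose ranges were separate. Mlkl had a higher level than 74.3% of the tested genes in siNC, and Fadd than 14.2%. In siCNN3 the order was Mlkl, Cflar, Tnfrsf10b, Casp8, Fas, Ripk1 and Fadd. The lowest Mlkl value in that group, 39.6 FPKM, was above the highest Cflar value, 26.1 FPKM, and Mlkl exceeded 92.4% of the tested genes.

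**Figure D1:**
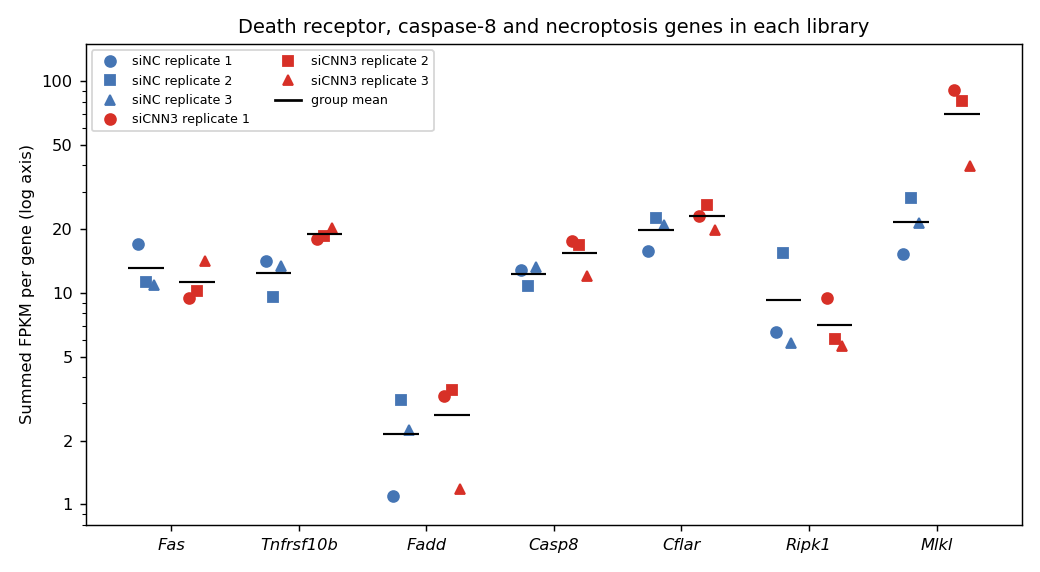
Summed FPKM (vertical log axis) of the 7 listed genes (horizontal axis) in each library, with siNC in blue, siCNN3 in red, a marker shape for each replicate number and a black line at each group mean. Mlkl lies between 15.3 and 28.0 FPKM in siNC and between 39.6 and 91.0 FPKM in siCNN3, and the groups are also separate for Tnfrsf10b, while they overlap for the other 5 genes.

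Comparing siCNN3 with siNC asked whether RNA of the death pathways differs between cells given CNN3 siRNA and cells given NC siRNA. Mlkl, the membrane effector of necroptosis, and Tnfrsf10b, the TRAIL receptor, were higher in every siCNN3 library than in every siNC library. None of the 7 genes passed the adjusted threshold. limma called 0 of them at an adjusted p below 0.05, where 1.73% of all tested genes were called higher and 0.336% lower. At an unadjusted p below 0.05 the count was 2, Mlkl and Tnfrsf10b, both higher, where 9.94% of all genes were higher at that level and 6.14% lower. The groups were separate with siCNN3 higher for the same 2 genes and with siCNN3 lower for 0, compared with 13.8% and 9.35% of all tested genes. Of the 7 genes, 5 had a log2 fold change above 0, and the median was 0.21, compared with 0.03 over all tested genes. The share of higher genes among all called genes was 83.7%, and it was 68.2% after quantile normalization.

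Mlkl measured 15.3, 28.0 and 21.3 FPKM in the siNC libraries, against 91.0, 80.6 and 39.6 FPKM after CNN3 knockdown. The siCNN3 values are all higher, and siCNN3 replicate 3 is the lowest of them by far. The siNC mean was 21.6 ± 6.37 FPKM and the siCNN3 mean 70.4 ± 27.2 FPKM (SD, n = 3), or 3.27 times higher. Its log2 fold change was 1.62 (standard error 0.349, 95% interval 0.79 to 2.44), with an adjusted p of 0.0772 from limma. Without siCNN3 replicate 3 it was 1.98 and Mlkl was called (adjusted p = 0.0134), and with any other library left out the adjusted p was between 0.103 and 0.266. The exact permutation p was 0.1, the smallest that 3 against 3 libraries can give. In bulk RNA, more cells with Mlkl RNA and more of it per cell cannot be told apart.

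Interferon response genes differed between libraries as well. On a scale of the mean log2(FPKM + 1) of 25 such genes, the siNC libraries scored 1.55, 3.90 and 2.62 and the siCNN3 libraries 6.67, 6.91 and 5.80. siNC replicate 2 was the highest siNC library and siCNN3 replicate 3 the lowest siCNN3 library on this scale, as they were for Mlkl. The highest siCNN3 library differed, with replicate 2 highest on this scale and replicate 1 for Mlkl. For both, siNC replicate 1 and siCNN3 replicate 3 were the lowest of their groups, as for 39.0% of all tested genes. limma called 15 of the 25 genes higher and 0 lower, where 1.73% of all tested genes were called higher and 0.336% lower. Without siNC replicate 1, 2 and 3 it called 7, 19 and 0 of them higher, beside 70, 151 and 16 genes in all. Without siCNN3 replicate 1, 2 and 3 the counts were 2, 1 and 18, beside 39, 29 and 444 in all. The 25 genes were chosen with earlier results of these data known. Whether these genes have a part in the level of Mlkl was not tested.

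Among all other tested genes, Mrpl19, Atf5 and Setdb2 had the profiles most like that of Mlkl over the 6 libraries. Their Pearson correlations of log2(FPKM + 1) with Mlkl were 0.999, 0.999 and 0.998. The points share their libraries and fall into the 2 groups, and these genes were picked for their likeness out of all tested, so the values describe the ranking only. Mrpl19, a protein of the mitochondrial ribosome, ranged from 3.67 to 4.26 FPKM across siNC libraries and from 4.53 to 5.51 FPKM across siCNN3 libraries. Atf5, a transcription factor of the stress response, measured 18.0, 36.9 and 26.8 FPKM in the siNC libraries, against 129.7, 119.6 and 57.6 FPKM after CNN3 knockdown. Setdb2, a gene of the histone methyltransferase family, ranged from 2.11 to 4.04 FPKM across siNC libraries and from 5.26 to 13.0 FPKM across siCNN3 libraries. None of the 3 passed the threshold (limma adjusted p = 0.357, 0.0629 and 0.106).

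The death receptors showed different patterns. Tnfrsf10b measured 14.2, 9.51 and 13.4 FPKM in the siNC libraries, against 17.9, 18.6 and 20.3 FPKM after CNN3 knockdown. The siCNN3 libraries lay close together and above all siNC libraries, of which replicate 2 was the lowest. The siNC mean was 12.4 ± 2.52 FPKM and the siCNN3 mean 18.9 ± 1.26 FPKM (SD, n = 3), or 1.53 times higher. The log2 fold change was 0.59 (standard error 0.172, 95% interval 0.18 to 1.00, limma adjusted p = 0.154), and it was between 0.43 and 0.69 over all alternatives, none of which called it.

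Fas measured 17.1, 11.2 and 10.9 FPKM in the siNC libraries, against 9.44, 10.2 and 14.1 FPKM after CNN3 knockdown. The groups overlap, and the highest library of each is the one that stands apart. Its log2 fold change was -0.19 (95% interval -0.73 to 0.34, limma adjusted p = 0.722), and it was between -0.35 without siCNN3 replicate 3 and 0.0026 without siNC replicate 1. Of its listed transcripts, Fas-201 has 9 exons and Fas-202 has 3, and Fas-202 carried between 5.03% and 21.7% of the summed FPKM.
The ratio of Tnfrsf10b to Fas within a library was 0.832, 0.849 and 1.23 in the siNC libraries, against 1.89, 1.83 and 1.44 after CNN3 knockdown. Tnfrsf10b thus had the larger value in every siCNN3 library and in 1 of the siNC libraries. This pair was chosen after its values were seen. The difference of the log2 ratio was 0.84 and the exact permutation p 0.1, or 0.2 adjusted by the Benjamini-Hochberg method over the 4 ratios computed.

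Fadd, the adaptor of both receptors, had the lowest level of the 7 genes. It measured 1.10, 3.12 and 2.24 FPKM in the siNC libraries, against 3.25, 3.47 and 1.19 FPKM after CNN3 knockdown. siNC replicate 1 and siCNN3 replicate 3 had similar low values, and the other 4 libraries lay between 2.24 and 3.47 FPKM. The log2 fold change was 0.19 (95% interval -0.66 to 1.04, limma adjusted p = 0.836), and it was between -0.08 without siNC replicate 1 and 0.52 without siCNN3 replicate 3.

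Casp8 measured 12.8, 10.8 and 13.2 FPKM in the siNC libraries, against 17.5, 16.9 and 11.9 FPKM after CNN3 knockdown. siCNN3 replicates 1 and 2 were above all siNC libraries, and siCNN3 replicate 3 was within their range. The siNC mean was 12.3 ± 1.26 FPKM and the siCNN3 mean 15.4 ± 3.04 FPKM (SD, n = 3). On the log2 scale the difference was 0.30 (95% interval -0.13 to 0.72, limma adjusted p = 0.464). It was 0.46 without siCNN3 replicate 3 and 0.59 with transcripts listed at 0 left out, neither of which was called.
The division between the listed transcripts of Casp8 varied between libraries. Casp8-201, of 2585 bases, measured 3.98, 10.7 and 13.2 FPKM in the siNC libraries, against 17.5, 16.9 and 7.52 FPKM after CNN3 knockdown. Casp8-202, of 1917 bases and with a start farther into the gene (58802502), gave 8.81, 0.0953 and 0 FPKM in the siNC group, against 0, 0 and 4.43 FPKM in the siCNN3 group. It made up 68.9% of the Casp8 sum in siNC replicate 1 and 37.0% in siCNN3 replicate 3, the pair of libraries described above, and at most 0.881% in the other 4.

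Cflar measured 15.7, 22.7 and 20.9 FPKM in the siNC libraries, against 23.0, 26.1 and 19.9 FPKM after CNN3 knockdown. The groups overlap, with a log2 fold change of 0.21 (95% interval -0.20 to 0.63, limma adjusted p = 0.595). It was 0.065 without siNC replicate 1, 0.12 without siCNN3 replicate 2 and 0.12 after quantile normalization. Cflar-205, its longest listed transcript with 6572 bases, held between 90.1% and 93.0% of the sum in every library. Cflar-204, with 5 exons against the 10 of Cflar-205, measured 0.377, 1.03 and 0.986 FPKM in the siNC libraries, against 0.980, 1.65 and 1.23 FPKM after CNN3 knockdown, and these groups overlap too. Cflar-201 had values of 0.886, 1.10 and 0.913 FPKM in the siNC libraries and 0.634, 0.778 and 0.744 FPKM in the siCNN3 libraries. The siCNN3 values are all lower, with a log2 fold change of -0.19 (limma adjusted p = 0.729), and it made up 2.76% to 5.63% of the Cflar sum.
The ratio of Cflar to Casp8, the inhibitor to its target, was 1.23, 2.10 and 1.59 in the siNC libraries, against 1.31, 1.55 and 1.66 after CNN3 knockdown. Cflar was above Casp8 in all 6 libraries, and the siCNN3 ratios lay within the range of siNC (difference of the log2 ratio -0.09, exact permutation p = 0.8). The ratio of Fadd to Casp8 was between 0.0858 and 0.289 in siNC and between 0.0995 and 0.206 in siCNN3 (difference -0.05, exact permutation p = 1). The exact permutation p-values adjusted over the 4 ratios were 1 for both.

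**Figure D2:**
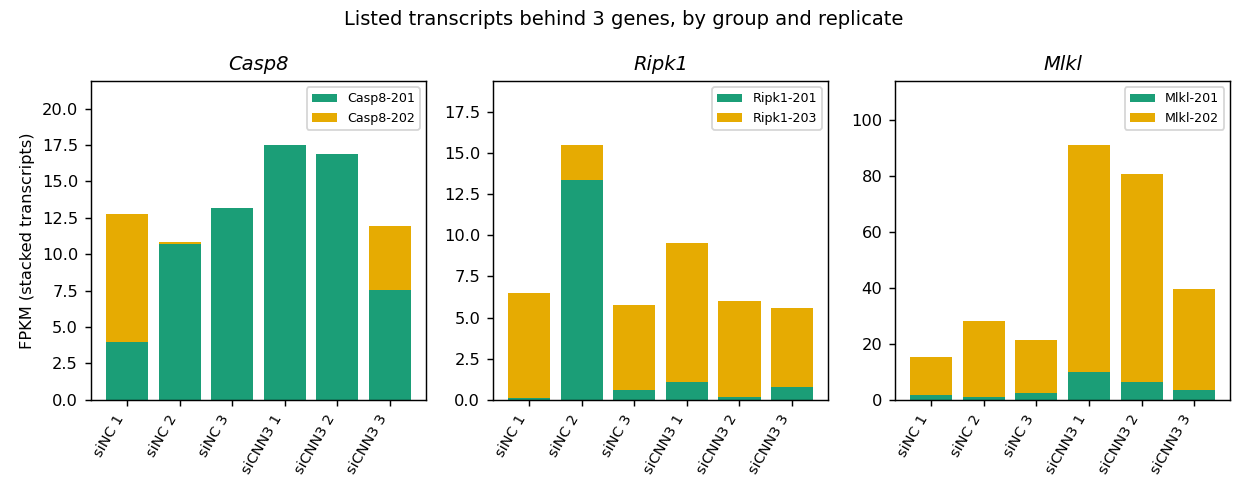
FPKM (vertical axis, from 0) of the listed transcripts of Casp8, Ripk1 and Mlkl, stacked for each of the 6 libraries (horizontal axis). Casp8-202 is large in siNC replicate 1 and siCNN3 replicate 3, Ripk1-201 makes up 86.3% of the Ripk1 sum in siNC replicate 2 alone, and Mlkl-202 makes up at least 88.0% of the Mlkl sum in each library.

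Ripk1, the kinase that links death receptors to both forms of death, measured 6.52, 15.5 and 5.79 FPKM in the siNC libraries, against 9.50, 6.03 and 5.61 FPKM after CNN3 knockdown. siNC replicate 2 was far above the other 5 libraries. The log2 fold change was -0.26 (95% interval -1.13 to 0.61, limma adjusted p = 0.767), and it was between -0.50 without siNC replicate 3 and 0.14 without siNC replicate 2, so its direction rests on the latter library.
The high value came from 1 transcript. Ripk1-201, of 3266 bases, was at 13.4 FPKM in siNC replicate 2 and at 0.0925 to 1.08 FPKM in the other 5 libraries. Ripk1-203, of 6472 bases, measured 6.43, 2.12 and 5.19 FPKM in the siNC libraries, against 8.43, 5.84 and 4.86 FPKM after CNN3 knockdown. When each transcript was weighted by its length, a choice made after the values were seen, Ripk1 gave 6.47, 8.87 and 5.49 FPKM in the siNC group, against 8.97, 5.94 and 5.24 FPKM in the siCNN3 group. The means were then 6.95 ± 1.74 and 6.71 ± 1.98 FPKM (SD, n = 3), a difference of -0.05 on the log2 scale (limma adjusted p = 0.941).

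Both listed transcripts of Mlkl were higher in every siCNN3 library than in every siNC library. Mlkl-202 measured 13.5, 27.0 and 18.8 FPKM in the siNC libraries, against 81.2, 74.3 and 36.2 FPKM after CNN3 knockdown. Mlkl-201 measured 1.80, 0.990 and 2.55 FPKM in the siNC libraries, against 9.78, 6.31 and 3.41 FPKM after CNN3 knockdown. The transcripts have 11 exons each and nearly the same length (1976 and 2003 bases), so FPKM can be divided between them with error. In a fit of the 21658 transcripts with a mean of at least 0.5 FPKM, limma called 0 of the 13 listed transcripts of the 7 genes, where 0.54% of all these transcripts were called. At an unadjusted p below 0.05 there were 3 of the 13, beside 10.7% of all transcripts. The lowest adjusted p was 0.192, for Mlkl-202.

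The ratio of Mlkl to Ripk1 within a library was 2.35, 1.81 and 3.68 in the siNC libraries, against 9.58, 13.4 and 7.06 after CNN3 knockdown. The ranges are separate, and this pair, too, was chosen after its values were seen. The difference of the log2 ratio was 1.95, and 1.72 when transcripts were weighted by length (exact permutation p = 0.1, adjusted p = 0.2 over the 4 ratios). Ratios with Ripk3 were not computed.

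**Figure D3:**
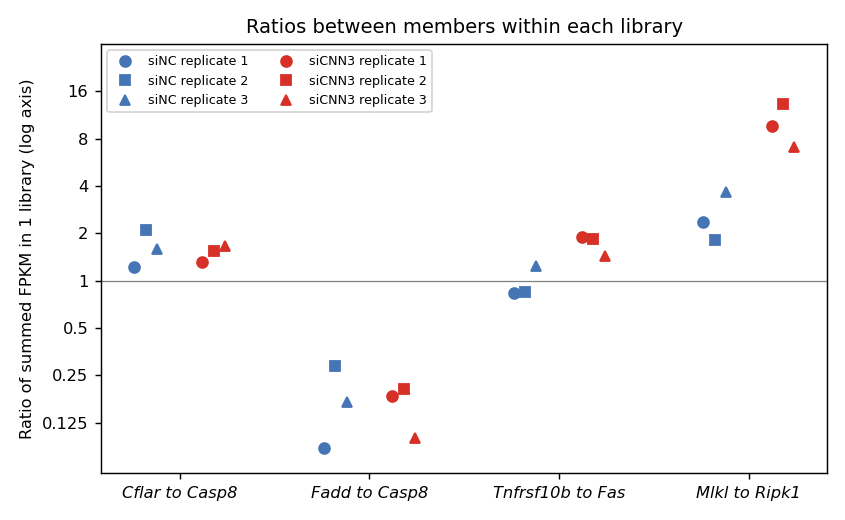
Ratio of the summed FPKM of 2 genes within each library (vertical log axis) for 4 pairs (horizontal axis), with siNC in blue, siCNN3 in red and a marker shape for each replicate number. Cflar to Casp8 and Fadd to Casp8 overlap between groups, while Tnfrsf10b to Fas and Mlkl to Ripk1 are higher in every siCNN3 library.

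A list of other genes of death receptor and necroptosis signaling had 60 genes, 56 listed and 54 tested. limma called 2 of them higher, Zbp1 and Axl, and 0 lower. Before adjustment, 9 were higher and 2 lower at a p below 0.05, 10 had separate groups with siCNN3 higher and 4 with siCNN3 lower, and 30 had a log2 fold change above 0 and 24 below. Over all tested genes 1.73% were called higher and 0.336% lower. The shares were 9.94% and 6.14% before adjustment and 13.8% and 9.35% for separate groups. The list had a median of 0.05 on the log2 scale, beside 0.03 for all tested genes. Zbp1 encodes a sensor of Z-form nucleic acids that can engage Ripk3 and Mlkl without a death receptor. It measured 2.02, 5.81 and 4.71 FPKM in the siNC libraries, against 146.3, 137.1 and 80.9 FPKM after CNN3 knockdown. Its mean FPKM was 29.1 times higher in siCNN3. The log2 fold change was 4.60 (limma adjusted p = 0.00473, standard error 0.355), and Zbp1 was called under every alternative. Axl, a receptor tyrosine kinase of the TAM family, rose from 116 ± 4.72 to 172 ± 6.60 FPKM (SD, n = 3), or by 0.56 on the log2 scale (limma adjusted p = 0.0349, standard error 0.0919). Axl was called with siCNN3 replicate 3 left out and with no other library left out (adjusted p up to 0.170). Nor was it called after quantile normalization (limma adjusted p = 0.0507), with the replicate number as a block (0.142) or without a trend (0.0766). Mertk, another kinase of this family that was chosen after its values were seen, was lower in every siCNN3 library and did not pass (log2 fold change -0.39, limma adjusted p = 0.313).
Of the genes that did not pass, Tlr3, Trim21 and Eif2ak2 had the largest fold changes on the log2(FPKM + 1) scale, an order that depends on the pseudocount. Tlr3, an endosomal receptor for double-stranded RNA, measured 0.593, 4.17 and 1.19 FPKM in the siNC libraries, against 32.7, 24.1 and 3.93 FPKM after CNN3 knockdown, so that siCNN3 replicate 3 was below siNC replicate 2 (log2 fold change 2.62, limma adjusted p = 0.158). Trim21, a ubiquitin ligase, had a log2 fold change of 2.40 (limma adjusted p = 0.0671) and Eif2ak2, the kinase PKR, of 1.63 (limma adjusted p = 0.0818). The groups were separate for both. With transcripts listed at 0 left out, the log2 fold change of Tlr3 was 1.52 (limma adjusted p = 0.517). Without siCNN3 replicate 3, Tlr3 (limma adjusted p = 0.0218) and Trim21 (0.0203) were called, and without siNC replicate 2, Eif2ak2 was (0.0470). The ligand genes Fasl and Lta had no listed transcript and Tnf was below the filter. The TRAIL gene Tnfsf10, chosen after its values were seen, measured 0.163, 0.168 and 0.0902 FPKM in the siNC libraries, against 3.35, 3.62 and 0.533 FPKM after CNN3 knockdown (log2 fold change 1.46, limma adjusted p = 0.146). With a pseudocount of 0.1 its log2 fold change was 3.08 (limma adjusted p = 0.0985), above that of Trim21 and Eif2ak2. It, too, was called without siCNN3 replicate 3, with a log2 fold change of 1.98 (limma adjusted p = 0.00285).

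Of 10 caspase genes, Casp8 among them, 9 were listed and tested, and limma called 0 of them, with 4 higher and 0 lower at an unadjusted p below 0.05. The same 4 had separate groups, with siCNN3 higher, where the shares of all tested genes were 9.94% and 13.8%. Of these, 3 are described. Casp1, the inflammasome caspase, ranged from 3.29 to 5.19 FPKM across siNC libraries and from 6.70 to 11.2 FPKM across siCNN3 libraries (log2 fold change 0.99, limma adjusted p = 0.0983). Casp12 ranged from 18.0 to 33.2 FPKM across siNC libraries and from 40.6 to 49.5 FPKM across siCNN3 libraries (log2 fold change 0.73, limma adjusted p = 0.187), and its log2 fold change was 0.47 without siNC replicate 1. Casp4, another inflammatory caspase that was chosen after its values were seen, ranged from 38.9 to 41.1 FPKM across siNC libraries and from 55.8 to 70.0 FPKM across siCNN3 libraries (log2 fold change 0.67, limma adjusted p = 0.0519). Without siCNN3 replicate 3, Casp1 and Casp4 were called (limma adjusted p = 0.0281 and 0.0136). The median log2 fold change of the 9 genes was 0.30.
Downstream of caspase-8, 14 genes of the mitochondrial arm and of substrates were tested and limma called 0. At an unadjusted p below 0.05 there were 2 of the 14, both higher, beside 9.94% of all tested genes, and the median log2 fold change was -0.03. The largest fold changes were those of Bid, the substrate that carries the caspase-8 signal to mitochondria (0.87, adjusted p = 0.333), Cycs, which encodes cytochrome c (0.75, adjusted p = 0.231), and Gsdmd, the pore protein of pyroptosis (0.60, adjusted p = 0.226, limma for each). Bid measured 3.74, 10.9 and 11.8 FPKM in the siNC libraries, against 17.8, 16.9 and 12.1 FPKM after CNN3 knockdown, and the highest siNC and the lowest siCNN3 library nearly touched. Without siNC replicate 1 its log2 fold change was 0.41. Cycs was called without siCNN3 replicate 3 (limma adjusted p = 0.0498).

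**Figure D4:**
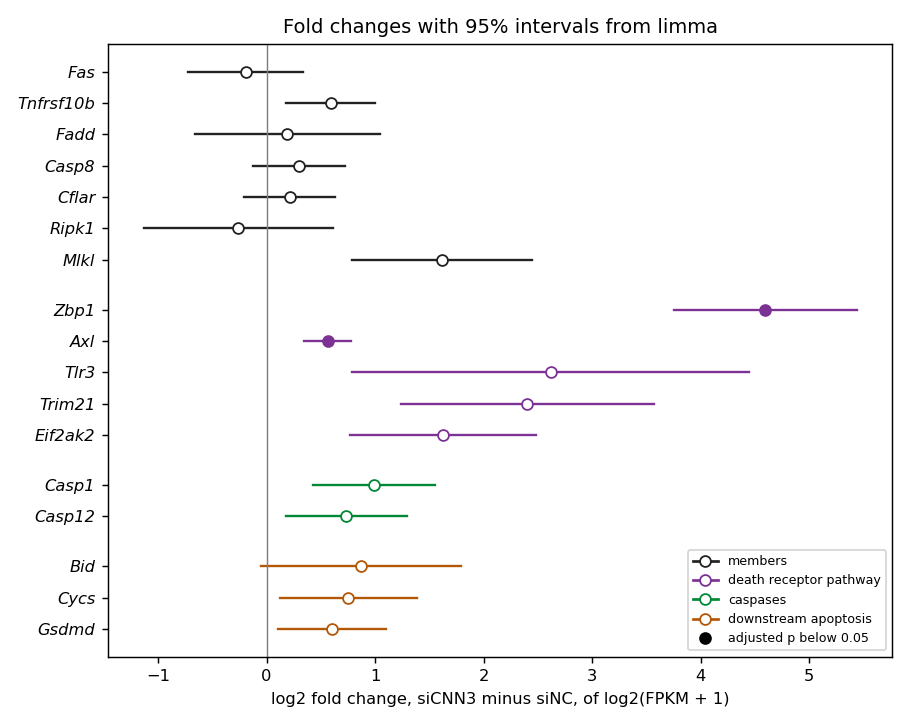
Log2 fold changes of siCNN3 minus siNC on the log2(FPKM + 1) scale (horizontal axis, points) with 95% intervals from limma (lines), colored by list. Shown are the 7 listed death receptor and necroptosis genes. From the 3 other lists, Zbp1, Axl, Tlr3, Trim21, Eif2ak2, Casp1, Casp12, Bid, Cycs and Gsdmd are shown. Other named genes of those lists, among them Casp4, Tnfsf10, Mertk, Chmp4b, Flot1 and Flot2, are not. Filled points (Zbp1 and Axl) passed the adjusted threshold of 0.05, and the interval of Mlkl runs from 0.79 to 2.44.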

How the data were processed

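RNA of 3 siNC and 3 siCNN3 cultures was sequenced. The authors deposited FPKM for 24023 Ensembl transcripts per library. The submitters' processing notes list Bowtie 0.12.2 and the builds mm8 and mm10 without their roles, and the program that made the FPKM and the depth are not given in the sources used here, so counting error cannot be stated. Identifiers were matched without version to GENCODE M21 (GRCm38), which placed 23949 transcripts, and 74 were left out. FPKM were summed per gene symbol. Genes whose mean over the 6 libraries reached 0.5 FPKM were fitted as log2(FPKM + 1) in R 4.3.3 by limma 3.58.1 (two-sided moderated test, mean-variance trend, Benjamini-Hochberg adjustment over all genes, threshold 0.05). Fold changes are on this scale, where the pseudocount shrinks those of low genes. The fit was tested on simulated data.

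The genes and lists were chosen with earlier results of these data known. Named genes were the 8 genes, Cnn3, called genes of the death receptor pathway, caspase and downstream apoptosis lists with the 3 largest fold changes of each that did not pass, and the 3 profiles most like that of the gene with the largest fold change. The values of 1 gene that this rule names are not reported here. Cell type markers and genes without a listed or tested value are named outside this rule, and any other gene is marked as chosen after its values were seen. Ratios were compared by exact two-sided permutation tests. The alternatives were a pseudocount of 0.1, no filter or one of 5 FPKM, no trend, a block for the replicate number, scaling by median of ratios or by quantiles, each library left out, transcripts fitted singly and transcripts listed at 0 left out. Weighting transcripts by length was added after the data were seen. Figures were made in Python 3.11.15 with matplotlib 3.10.9.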

Additional observations from a re-analysis of the deposited data

How the results depend on the processing

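With 3 libraries a group and unknown depth, single libraries moved the counts most. With each library left out in turn, between 16 (without siNC replicate 3) and 444 (without siCNN3 replicate 3) genes were called higher and between 4 and 161 lower, beside 200 and 39 with all libraries, 0 or 1 of the 7 death receptor and necroptosis genes was called higher (Mlkl, without siCNN3 replicate 3) and 0 lower. In the same fits 1 to 6 genes of the death receptor pathway list, 0 to 3 caspases, 0 or 1 downstream gene and 0 to 19 genes of the interferon index were called higher. Replicate numbers did not pair the libraries (correlations of same-numbered deviations of -0.278, 0.314 and -0.0247 over 11593 genes). With the replicate number as a block, 62 genes were called higher and 6 lower, with 1 in the death receptor pathway list, 7 in the interferon index and 0 of the 7 genes. Leaving out transcripts listed at 0 gave 125 higher genes and 9 in the interferon index, and moved the difference of the Cflar to Casp8 log2 ratio from -0.09 to -0.44, since Casp8-202 is removed. Median-of-ratios scaling and quantile normalization gave 63 and 93 lower genes. The death receptor pathway list had 1 called gene after quantile normalization and without a trend, and the caspases had 1, Casp4, with a filter at 5 FPKM and with transcripts weighted by length. With each library left out in turn, the log2 fold change ran from -0.078 to 0.52 for Fadd, from -0.35 to 0.0026 for Fas and from -0.50 to 0.14 for Ripk1, with the sign reversed without siNC replicate 1 for Fadd and Fas and without siNC replicate 2 for Ripk1. It also reversed for Casp8-202 (-0.33), Cflar-201 (-0.19), Fas-202 (0.082) and Ripk1-203 (0.47) fitted on their own. The ratios of Ripk3 to Ripk1 and of Mlkl to Ripk3 were not run, because Ripk3 has no listed transcript.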

Other observations

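In the pathway list, 6 genes are known to act on the plasma membrane downstream of Mlkl, and they were looked at after their values were seen. They are Chmp4b, Chmp2a and Chmp3, subunits of the ESCRT-III complex that repairs membrane, Pdcd6ip, which recruits it, and the flotillins Flot1 and Flot2. Chmp4b measured 93.1, 112 and 103 FPKM in the siNC libraries, against 159, 159 and 129 FPKM after CNN3 knockdown (log2 fold change 0.53, limma adjusted p = 0.104), and without siCNN3 replicate 3 it was called (0.63, limma adjusted p = 0.0390). Flot1 measured 38.1, 31.3 and 30.9 FPKM in the siNC libraries, against 15.7, 21.2 and 25.8 FPKM after CNN3 knockdown (log2 fold change -0.68, limma adjusted p = 0.154). The Flot2 groups were separate as well, with siCNN3 lower (log2 fold change -0.35, limma adjusted p = 0.247). The groups overlapped for Pdcd6ip, Chmp2a and Chmp3, with log2 fold changes of -0.10, -0.10 and 0.06. None of the 6 genes passed the threshold with all libraries.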
